A study of Mus musculus with 4 samples.

Results

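The replication-dependent histone genes were followed through the cell cycle of medial ganglionic eminence (MGE) cells, the ventral forebrain zone that produces cortical interneurons and globus pallidus neurons. The genes were taken by name, as every symbol beginning with Hist1h, Hist2h, Hist3h or Hist4h, and by a minimum of 10 unique molecular identifiers (UMIs, 1 per captured mRNA molecule) summed over the cells of all libraries. The members were thus chosen by name and UMI total. This left 62 of 67 symbols, out of 32285 genes counted. They comprised 6 of 6 linker histones H1, 16 of 18 H2A, 16 of 18 H2B, 12 of 12 H3 and 12 of 13 H4 genes, and together held 1001356 UMIs. The least counted members were Hist1h1t with 20 UMIs and Hist1h2ao with 28. Just outside were Hist2h2aa2 with 3 UMIs, Hist1h2aa with 2, and Hist1h2bq and Hist1h4m with 1 each, and Hist1h2ba had 0. Since the UMI total chose the members, it is given as a description. The rule did not use phase, cell class or genotype, but the choice was made with earlier results of these data known.

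The cells were dissociated from the MGE of mouse embryos at e14.5, of a mixed C57/BL6 and ICR background, and their mRNA was counted in 4 droplet libraries (10x Genomics). The labels give 2 libraries as St18 (−/−) and 2 as WT, and the former are called null below. St18 encodes a zinc finger DNA-binding protein. Both genotypes came from heterozygous parents, and the null allele was a conditional allele recombined in the germline, so every cell of the animal carried it. MGE of several embryos had been pooled by genotype, and the number of embryos per pool was not stated, so that p-values measure the spread between these libraries.

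Each library held 70991150 to 92984713 UMIs, and 3758 to 6279 cells per library were kept, with 3000 or more UMIs each. From marker genes, 1547 to 2856 cells per library were progenitor-like and 2093 to 3265 neuron-like, called progenitors and neurons below. Nkx2-1, the transcription factor that marks the MGE, was detected in 83.7% to 87.8% of progenitors. Lhx6, its target in postmitotic cells, was detected in 71.2% to 81.8% of neurons and in 48.6% to 61.9% of progenitors. The neurons also include clusters with other top genes, such as Ebf1 and Isl1 (701 cells) or Neurod6 and Tbr1 (59 cells). Any pair of libraries shared 4 to 11 cell barcodes. St18 itself measured 25.1 and 77.2 CPM (UMIs scaled to the same total in every sum) in null neurons, beside 43.9 and 59.3 in WT neurons. In null replicate 2 it was thus not below WT. The paper reported the transcript as still detected in St18 (−/−) samples, at significantly lower levels in neurons. It proposed some nonsense-mediated decay as the likely reason. Tags outside the deleted exons can remain. As null replicate 1 lay below both WT libraries and null replicate 2 above both, the St18 level does not check the labels. Cells scored as male, from UMIs of Y-linked genes and Xist, made up 42.1% and 24.4% of null and 71.1% and 68.5% of WT progenitors.

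Replication-dependent histone genes supply the histones that package newly copied DNA. Their mRNAs are made mainly in S phase, usually lack introns, and end not in a poly(A) tail but in a short stem-loop that is bound by Slbp (stem-loop binding protein). Some members also give polyadenylated mRNA, mostly in cells that no longer divide. As 10x libraries are primed on stretches of A, they record histone mRNAs with an efficiency that can differ from gene to gene, and a member's CPM values are therefore compared between cells and libraries rather than between genes. In GENCODE M21 (GRCm38), 50 members lie in the Hist1 cluster on chromosome 13 with 85.0% of the histone UMIs, 9 in Hist2 on chromosome 3 with 4.29%, 2 in Hist3 on chromosome 11 with 10.6% and 1, Hist4h4, on chromosome 6 with 0.0671%. H1 genes held 45.6% of the UMIs, H2A 19.7%, H2B 15.7%, H3 8.75% and H4 10.3%.

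The stem-loop is the sequence that these genes share. The motif GGNNNTTTTNAGNGCC was present in the annotated coding transcripts of 40 of 62 members (64.5%), always after the stop codon, against 42 of 58731 other coding transcripts (0.0715%). Where it was absent the annotation often ended near the stop codon, as for Hist1h1b, whose transcript has 743 bases. The H4 stem was found in no other class, and the other classes shared theirs. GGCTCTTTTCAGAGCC was found in 25 members, none of them H4, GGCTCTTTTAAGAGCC in 6 members of H1, H2B and H3, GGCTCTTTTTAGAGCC in Hist2h2ac alone, and the GGCCC stem in H4 alone, as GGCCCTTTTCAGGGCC in 6 members and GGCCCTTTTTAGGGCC in 2. The lines below show 1 abundant member of each class and then 4 members whose levels departed from the rest. Capitals mark the stem-loop, to which the coordinates (GRCm38) apply, in the 3′ untranslated region of the only exon.
Hist1h1e (chr13:23621782-23621797, minus strand): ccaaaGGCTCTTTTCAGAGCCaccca
Hist1h2ap (chr13:21833029-21833044, minus strand): aaaaaGGCTCTTTTCAGAGCCatc
Hist1h2bm (chr13:21722506-21722521, plus strand): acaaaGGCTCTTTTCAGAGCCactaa
Hist1h3c (chr13:23745047-23745062, minus strand): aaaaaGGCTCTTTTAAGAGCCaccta
Hist1h4d (chr13:23581950-23581965, plus strand): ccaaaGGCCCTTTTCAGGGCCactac
Hist1h4i (chr13:22040966-22040981, minus strand): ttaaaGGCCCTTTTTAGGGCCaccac
Hist2h3c2 (chr3:96238485-96238500, minus strand): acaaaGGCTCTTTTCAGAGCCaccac
Hist3h2a (chr11:58955172-58955187, plus strand): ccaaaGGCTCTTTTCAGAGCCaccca
Hist3h2ba (chr11:58949349-58949364, plus strand): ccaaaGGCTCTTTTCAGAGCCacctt

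Sequences upstream of the start sites (RefSeq, GRCm38.p6, 57 members matched) were searched on both strands in windows of 250 bases before and 50 after the start. CCAAT, the site of the NF-Y factor, was in 49 of 57 members (86.0%) and in 37.4% of all 32851 promoters. It was in all 46 matched H1, H2A, H2B and H3 promoters and in 3 of 11 of H4. TATAAA, the TATA box, was in 32 members (56.1%) and in 13.6% of all promoters. The octamer ATTTGCAT, the site of POU factors such as Oct-1, was in 11 members (19.3%) and in 1.74% of all promoters, namely in 6 of 16 H2A and 5 of 14 H2B promoters and in none of H1, H3 or H4. For 8 H2A and H2B pairs that point away from each other, the windows overlapped by 233 to 279 bases. The stretch of 179 bases between the starts of Hist1h2ae and Hist1h2bg is shown as an example of a shared promoter, and 250 bases upstream are shown for an H1, an H4 and the exceptional H2B gene. Capitals mark the motifs in either orientation.
Hist1h2ae and Hist1h2bg, between their starts (chr13:23571221-23571399, plus strand): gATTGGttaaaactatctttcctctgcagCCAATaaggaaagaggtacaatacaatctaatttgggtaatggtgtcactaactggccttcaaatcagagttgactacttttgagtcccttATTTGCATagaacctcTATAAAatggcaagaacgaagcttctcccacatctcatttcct
Hist1h1b (chr13:21780626-21780875, minus strand): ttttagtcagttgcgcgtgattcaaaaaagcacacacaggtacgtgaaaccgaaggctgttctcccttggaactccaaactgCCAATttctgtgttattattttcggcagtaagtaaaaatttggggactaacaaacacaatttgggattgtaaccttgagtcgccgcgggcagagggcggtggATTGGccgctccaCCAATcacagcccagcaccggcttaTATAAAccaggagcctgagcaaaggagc
Hist1h4d (chr13:23581318-23581567, plus strand): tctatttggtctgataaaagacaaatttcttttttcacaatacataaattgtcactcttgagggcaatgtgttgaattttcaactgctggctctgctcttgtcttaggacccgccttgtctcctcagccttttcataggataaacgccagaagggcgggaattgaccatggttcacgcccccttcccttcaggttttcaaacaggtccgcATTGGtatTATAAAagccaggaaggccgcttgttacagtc
Hist3h2ba (chr11:58948661-58948910, plus strand): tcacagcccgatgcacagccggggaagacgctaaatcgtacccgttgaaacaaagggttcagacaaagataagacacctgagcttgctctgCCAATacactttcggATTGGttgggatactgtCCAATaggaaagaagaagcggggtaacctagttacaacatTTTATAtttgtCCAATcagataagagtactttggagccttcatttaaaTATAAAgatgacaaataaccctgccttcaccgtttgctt

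Histone mRNA was first compared between cell cycle phases. Progenitors were scored as S, G2M or G1 from lists of phase genes that hold none of the members. In S-scored progenitors, all members together gave 6878, 9152, 11312 and 12432 CPM. In this and all later lists of 4 values the order is null replicate 1, null replicate 2, WT replicate 1, WT replicate 2. In G2M-scored progenitors they gave 8704, 10627, 14184 and 14201 CPM. In G1-scored progenitors the sums were 1574, 1746, 2040 and 1959 CPM, and in neurons 2137, 2213, 2604 and 2558 CPM. The S and G2M sums lay above every G1 and neuron sum, with S over G1 at 4.37 to 6.35 fold and G2M over G1 at 5.53 to 7.25 fold within a library. Counting error was small beside this, with exact 95% Poisson intervals of 6828 to 6929 CPM in S and 1519 to 1631 CPM in G1 for null replicate 1. Barcodes with under 100 UMIs, which hold free RNA of the droplets, gave 3651, 4030, 5311 and 4895 CPM, more than G1 progenitors or neurons, so that the low sums of these cells cannot be told apart from free RNA. Member by member, 49 of 62 lay above the background in S in each library and 3 below, whereas 1 lay above in G1 and 45 below, and in neurons 3 above and 52 below.

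**Figure D1:**
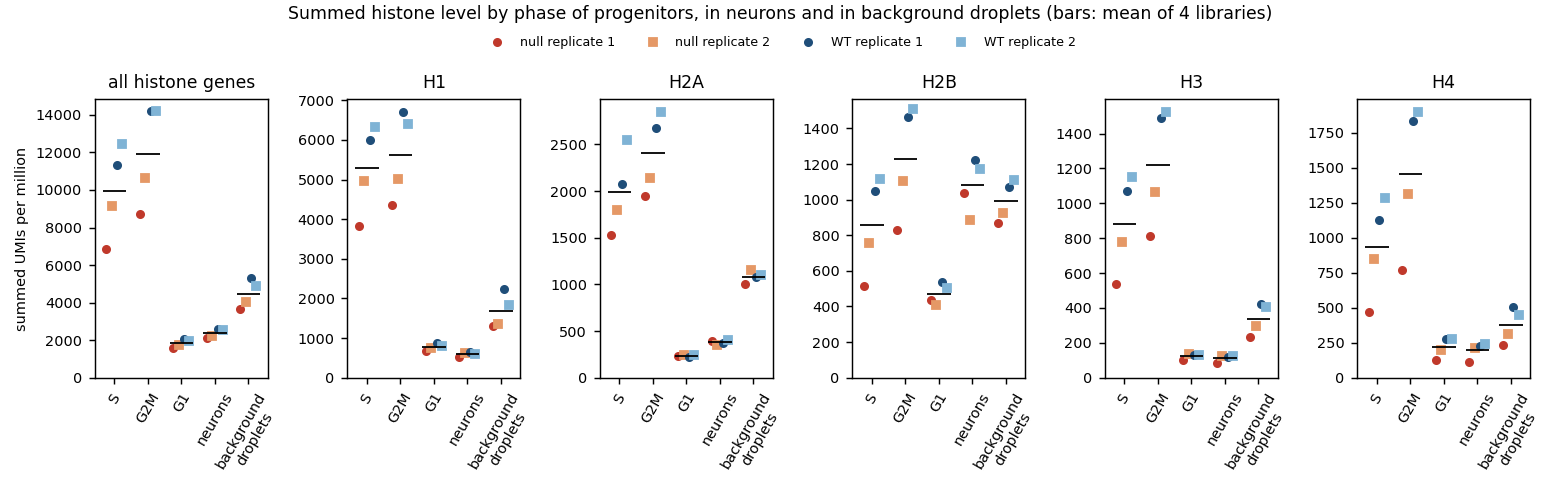
Summed CPM of the members of each histone class (panels) in S-, G2M- and G1-scored progenitors, neurons and background droplets, with 1 point per library and a bar at the mean of 4. H1, H2A, H3 and H4 stand high in S and G2M and low in G1 and neurons, while H2B in neurons lies at 886 to 1224 CPM, above S-scored cells of the same library.

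The classes did not move by the same factor. H1 mRNAs, whose products bind the linker DNA between nucleosomes, measured 5283 ± 1130 CPM (SD, n = 4) in S, 780 ± 83.1 in G1 and 603 ± 63.0 in neurons, which is 7.47 to 10.4 fold more in S than in neurons. The core histones of the nucleosome differed among themselves. H2A measured 1986 ± 433 CPM in S and 235 ± 11.8 in G1, H3 884 ± 282 and 125 ± 14.9, and H4 932 ± 356 and 218 ± 72.3. H2B was the exception, with 859 ± 277 CPM in S, 472 ± 59.8 in G1 and 1080 ± 151 in neurons. Its G1 level was carried largely by 2 genes, Hist3h2ba with a mean of 299 CPM and Hist1h2bc with 88.2 CPM. H1 thus made up 53.5% of histone UMIs in S but 25.4% in neurons, and H2B 8.50% in S, 25.8% in G1 and 45.4% in neurons. Of the histone UMIs captured in neurons, 41.2% were of 1 H2B gene, Hist3h2ba, with 981 ± 146 CPM. It has a poly(A) signal that most members lack, so this is a share of UMIs and not of mRNA.

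Gene by gene, edgeR's quasi-likelihood test on UMI sums per library and phase, with the library as a block and Benjamini-Hochberg adjustment over 13026 genes at 0.05, called 52 of 59 members tested higher in S than in G1, against 23.8% of all genes. It called 3 lower, against 20.8% of all genes, and 4 neither way. Members such as Hist1h2ah (0 UMIs in G1), Hist1h2ad, Hist1h4f and Hist1h4n (3 each) could pass the filter for low counts only through S or G2M. As they are high in those phases, their calls are no independent support. The median log2 fold change of the members was 2.88 (2.81 with Hist1h2ah at its lower bound), beside −0.017 over all genes. By class the medians were 2.96 for H1, 3.20 for H2A, 2.95 for H2B, 2.43 for H3 and 2.47 for H4.

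Among H1 genes, Hist1h1b (H1.5) had 2112, 2689, 2881 and 3095 CPM in S and 180, 217, 187 and 198 CPM in G1. The groups lay far apart, and the log2 fold change was 3.84 (SE 0.05, adjusted p = 1.04e-33). Hist1h1a (H1.1) rose almost as much, by 3.83, and Hist1h1d (H1.3) by 2.96. Hist1h1e (H1.4) rose by 1.96, from 359, 383, 514 and 441 CPM in G1 to 1082, 1366, 1952 and 2036 CPM in S. Hist1h1c (H1.2) rose by 1.79, the smallest change of an H1 gene tested. All 5 H1 genes tested rose. The ratio of G1 to S was 0.298 for Hist1h1c and 0.264 for Hist1h1e, and 0.0728 and 0.0725 for Hist1h1a and Hist1h1b. Background over S ran in the same direction, at 0.618 and 0.381 against 0.262 and 0.253, and the G1 level of each lay below its background in each library. The part of the background in these ratios was not tested. Hist1h1t, the testis H1 variant, was too low to be tested.

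Of the core histones, Hist1h2ap had the most UMIs of the H2A genes in S, with 638, 769, 880 and 1176 CPM, and 58.5 ± 8.23 CPM (SD, n = 4) in G1. Hist1h2ae followed with 524, 482, 565 and 693 CPM in S and 35.7 to 56.3 CPM in G1, and then Hist2h2ac with 170 to 277 CPM in S. Their log2 fold changes were 3.90, 3.64 and 2.90. For H2B, Hist1h2bm rose by 3.27, from 9.21 to 18.6 CPM in G1 to 69.1 to 164 CPM in S, and Hist2h2bb by 2.71. For H3, Hist1h3c rose by 3.19, from 27.6, 45.5, 40.7 and 42.1 CPM in G1 to 216, 308, 429 and 446 CPM in S, Hist1h3e by 2.43 and Hist1h3i by 3.07. For H4, Hist1h4d rose by 2.31, from 69.6, 122, 165 and 179 CPM to 302, 552, 792 and 896 CPM, Hist1h4h by 1.94 and Hist1h4a by 3.09. The highest fitted values were those of Hist1h2bh (4.28, SE 0.26), Hist1h2ad (3.99, SE 0.50), Hist1h3b (3.97, SE 0.23) and Hist1h2ap, beside Hist1h2ah, which had 37 UMIs in S and 0 in G1 and was at least 2.29-fold higher in S (3 UMIs over all libraries taken as the floor). These values rest on few molecules in G1. Hist1h2bh had 2, 2, 1 and 2 UMIs there, Hist1h3b 11 in all, and Hist1h2ad 0, 1, 2 and 0, so that its pooled counts were 15.5-fold higher in S with a 95% exact counting interval of 5.26 to 75.9, and without WT replicate 1 its fitted value was 5.07. Of the 55 members called either way in S against G1, 53 were called without each library in turn. The other 2 were Hist1h2ag (0.87, 18 UMIs in G1), which lost its call without null replicate 1 (0.83), null replicate 2 (0.69) or WT replicate 1 (0.83), and Hist1h4f (2.15, 3 UMIs in G1), which lost it without WT replicate 1 (1.62). The fitted value moved by over 1.5 times for 8 members, all to a larger one: without null replicate 1 for Hist1h2br (3.32 to 6.15, with 1 UMI left in G1), Hist1h3d (2.31 to 3.33), Hist1h4c (3.02 to 3.67) and Hist1h4n (3.12 to 4.11), without null replicate 2 for Hist2h2ab (1.63 to 2.53) and Hist2h3b (2.23 to 3.32), and without WT replicate 1 for Hist1h2ad and Hist1h2bk (1.87 to 2.58).

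**Figure D2:**
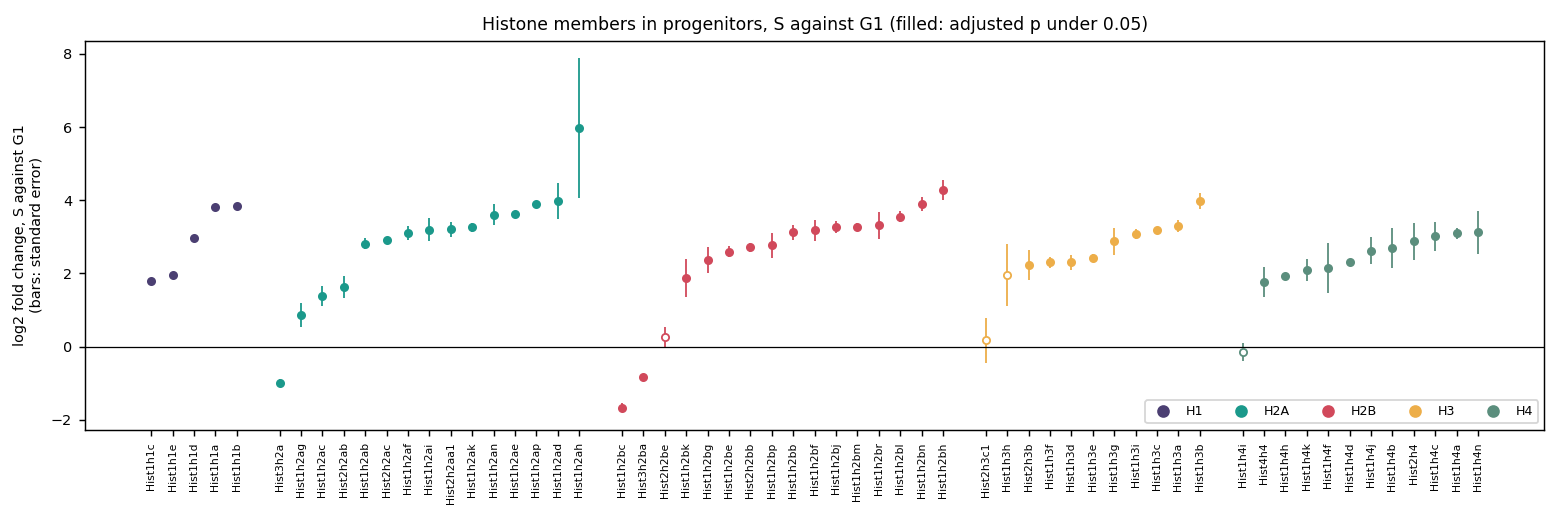
Fitted log2 fold change of S against G1 progenitors for the members tested, by histone class, sorted within each class, with the standard error as bars and filled points for adjusted p under 0.05. Apart from Hist1h2ah, which had 0 UMIs in G1 and whose fitted 5.97 is no bound (at least 2.29-fold), the members sit between −1.67 and 4.28, with 3 called lower, Hist1h2bc, Hist3h2a and Hist3h2ba.

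In G2M against G1, 53 members rose (23.4% of all genes) and 1 fell, Hist1h2bc (19% of all genes), with a member median of 3.08. Between the phases themselves, S-scored cells held less than G2M-scored cells for 41 members (24.4% of all genes were lower) and more for 2, Hist1h1a and Hist1h3a, by 0.31 and 0.55 (23.9% of all genes were higher), with a median of −0.45. Without the library block 8 members were lower and 0 higher in S, and the share of all genes called without the block is not given.

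The 3 phases are wide, since histone mRNA was concentrated in a part of both S- and G2M-scored cells. After each cell was thinned to 3000 UMIs, 23.8%, 28.3%, 33.2% and 35.7% of S-scored and 31.5%, 37.4%, 47.2% and 47.8% of G2M-scored cells held 40 or more histone UMIs. In G1-scored cells 1 of 188 did in WT replicate 1 and 0 in the other libraries, and in neurons 0.0306% to 0.191%. The median S-scored cell held only 7 to 9 histone UMIs. Progenitors were therefore also placed in 12 sectors of the plane of S and G2M scores, numbered in cycle order from the S axis towards G2M. The licensing and early S genes Mcm2, Mcm3, Cdt1 and E2f1 peaked in sector 11 and Ccne1 (cyclin E1) in sector 12. None of these, nor of the G2 and mitosis genes named next, is in the phase scores. Summed histone mRNA peaked in sectors 1 and 2, at 23410 and 23436 CPM (mean of 4 libraries), and was lowest in sector 9 at 1783 CPM, a 13.1-fold range. Ccna2 (cyclin A2), Ccnf, Plk1 and Ccnb1, genes of G2 and mitosis, peaked in sector 4. The peak of each histone class was in sector 1 (H1) or sector 2 (H2A, H2B, H3 and H4) on the mean of 4 libraries, and each library's own peak lay within 1 sector of it. The range was 19.5-fold for H2A, 18.4-fold for H3, 14.9-fold for H1, 11.1-fold for H4 and 6.02-fold for H2B. H2B was lowest in sector 10, at 318 CPM. In sector 8, Hist3h2ba and Hist1h2bc had 335 and 112 of the 552 CPM of H2B.

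**Figure D3:**
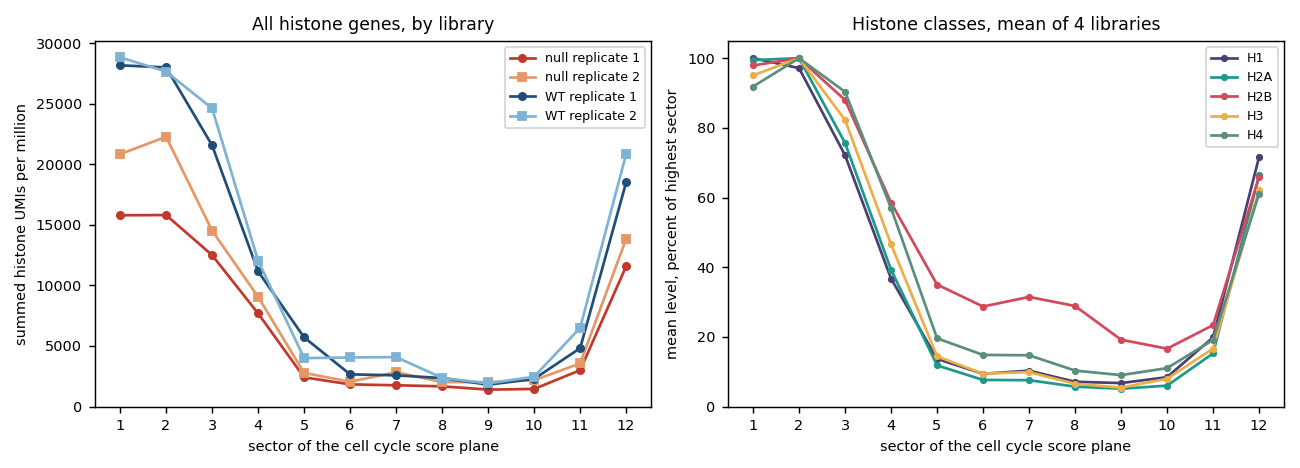
Left, summed histone CPM of progenitors in each of the 12 sectors of the plane of S and G2M scores, 1 line per library. Right, the mean of 4 libraries for each histone class as a percentage of its highest sector. The classes rise together to sectors 1 and 2, where the null lines lie below the WT lines, and H2B keeps more of its peak level between sectors 5 and 8 than the others. In sector 8, Hist3h2ba and Hist1h2bc had 335 and 112 of the 552 CPM of H2B.

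Members that did not follow S phase were few. Hist3h2ba, an H2B gene (chr11:58948920-58949533), had 145, 142, 173 and 178 CPM in S, 325, 255, 312 and 303 CPM in G1 and 966, 782, 1114 and 1060 CPM in neurons. Each neuron value lay above each G1 value and each G1 value above each S value. Its background was 673, 660, 689 and 759 CPM, below the neurons but above the S- and G1-scored progenitors of the same library in all 4, so that the difference of S against G1 lies at levels below those of free RNA. The log2 fold change of S against G1 was −0.84 (SE 0.05, adjusted p = 2.44e-15). Its neighbour Hist3h2a, an H2A gene (chr11:58954685-58956830), went the same way, with 27.2, 24.2, 25.9 and 29.1 CPM in S, 69.6, 52.5, 44.0 and 50.1 CPM in G1 and 226, 177, 215 and 224 CPM in neurons, with backgrounds of 97.1 to 118 CPM that again lay below the neurons and above both phases. Its log2 fold change of S against G1 was −0.98 (SE 0.10). Across the clusters of neurons Hist3h2ba ranged from 526 to 1235 CPM and Hist3h2a from 89.7 to 279.5 CPM. The annotation of Hist3h2a lies entirely inside Trim17 on the same strand, so reads of the pair may be shared between them.

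Hist1h2bc, an H2B gene (chr13:23684199-23692908), behaved differently from both. It had 21.5 to 27.6 CPM in S and 60.9, 61.5, 115 and 115 CPM in G1, but 20.6, 14.1, 22.4 and 22.7 CPM in neurons, near its background of 23.8 to 26.7 CPM. In G2M-scored progenitors it had 33.9, 34.6, 35.8 and 42.8 CPM, above S and above background. It was therefore highest in G1-scored progenitors among these groups, with a log2 fold change of S against G1 of −1.67 (SE 0.12, adjusted p = 9.25e-14) and of G1 progenitors against neurons of 2.07. One progenitor cluster of 800 cells, with summed histones of only 2127 CPM, held 135 CPM of Hist1h2bc, whereas the other progenitor clusters held 16.7 to 55.8 CPM. Of the cells of that cluster 52.1% were scored as G2M and 2.5% as S. The 4 members called neither way in S against G1 were Hist1h3h, Hist1h4i, Hist2h2be and Hist2h3c1. Hist1h4i is uncertain, since WT replicate 1 had 51.5 CPM in G1 and the others 7.05 to 13.3 CPM, and its log2 fold change turned from −0.15 to 0.67 without that library.

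In G1-scored progenitors against neurons 12 of 53 members tested were higher (27% of all genes) and 5 lower (26.6% of all genes). Members were thus called no more often than genes at large, and those called are given as a description. The 5 that were lower in G1 progenitors, and so higher in neurons, were Hist3h2a (−1.92), Hist3h2ba (−1.71), Hist4h4 (−1.12), Hist1h2ae (−0.25) and Hist2h3c2. Hist2h3c2 had 47, 28, 17 and 22 UMIs in neurons and 0, 2, 0 and 0 in G1, so that it was tested through the neurons alone. Its pooled counts were 4.82-fold higher in neurons, with a 95% exact counting interval of 1.30 to 40.2, and its fitted value of −2.25 became −6.98, which is no bound, without null replicate 2, which held both G1 UMIs, and −1.41 without null replicate 1. Its call was lost without null replicate 1, WT replicate 1 or WT replicate 2. Hist4h4 had 4, 2, 2 and 1 UMIs in G1 and lost its call without null replicate 2 (−0.92), WT replicate 1 (−1.13) or WT replicate 2 (−1.08). On the higher side were Hist1h2ag (2.25), Hist1h4i (2.20), Hist1h2bc (2.07) and 9 others between 0.20 and 0.95. These 9 included 4 H1 genes, Hist1h1b, Hist1h1c, Hist1h1d and Hist1h1e, at 0.20 to 0.47. Hist1h2ag had 3, 4, 6 and 5 UMIs in G1 and 12, 8, 12 and 13 in the larger sums of neurons. It passed the filter for low counts only through G1, where it is high, so its call is no independent support. The value of Hist1h4i was carried in part by WT replicate 1, which held 62 of its G1 UMIs against 26, 11 and 9 in null replicates 1 and 2 and WT replicate 2, and it was 1.44 without that library, still called. Of the 17 members called, 9 were called without each library in turn. Besides Hist2h3c2 and Hist4h4, calls were lost by Hist1h2ae without null replicate 2 (−0.22) or WT replicate 1 (−0.19), by Hist1h1d (0.28) without null replicate 1 (0.14) or WT replicate 2 (0.27), and by Hist1h2ac (0.88) without WT replicate 1 (0.28) or WT replicate 2 (0.83). Hist2h2bb (0.39) lost its call without WT replicate 1 (0.24) or WT replicate 2 (0.28), Hist1h3a (0.95) without WT replicate 1 (0.58) and Hist2h2be (0.78) without null replicate 1 (0.35). Without WT replicate 1, 11 members were called, and the share of all genes called in that fit is not given.

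**Figure D4:**
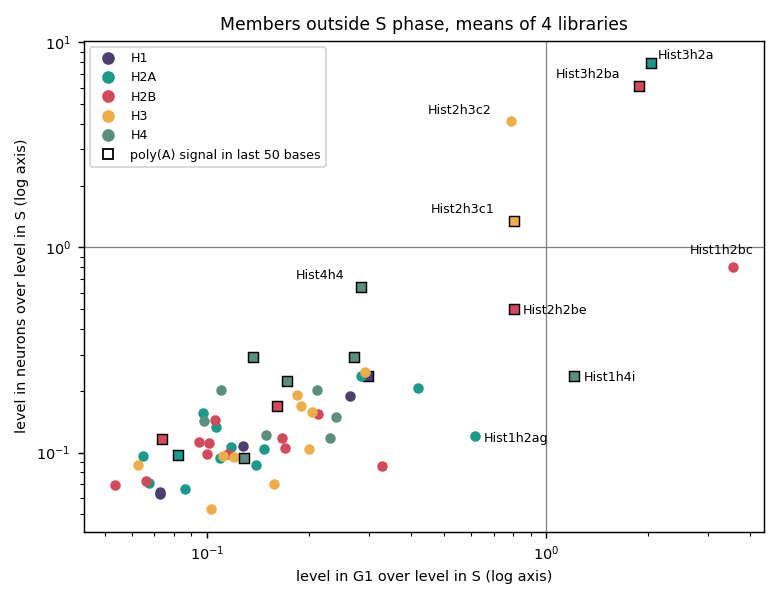
Mean CPM in neurons over mean CPM in S-scored progenitors against mean CPM in G1 over S for the members with UMIs in G1, on log axes, coloured by histone class, with squares for a poly(A) signal in the last 50 annotated bases. Hist3h2a and Hist3h2ba stand at 7.91 and 6.15 on the neuron axis, Hist1h2bc at 3.57 on the G1 axis, and the medians of the 59 members shown are 0.120 (neurons over S) and 0.150 (G1 over S).

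The level outside S phase was set beside the annotated 3′ ends, as a description. The median ratio of neurons to S was 0.104 over 19 members whose transcript ends at most 100 bases after the stem-loop and 0.201 over 21 members whose transcript runs further. It was 0.237 over 15 members with AATAAA or ATTAAA in the last 50 bases (0.0630 to 7.91) and 0.111 over 47 without (0.0529 to 4.12). Hist2h3c2, at 4.12, has no such signal in the last 50 bases of its annotated transcript. Hist3h2ba, Hist3h2a and Hist4h4 have all of these, with AATAAA and transcripts that run 169, 1643 and 2445 bases past the stem-loop. The stem-loops of Hist3h2a and Hist3h2ba have the same 16 letters as those of S-phase members such as Hist1h1e (lines above), and Hist3h2ba has TATAAA and CCAAT upstream as Hist1h1b does. Hist3h2a has CCAAT and the octamer but no TATAAA in its window, and Hist4h4 has none of the 3 motifs. Hist1h2bc has no stem-loop in its annotated transcript and was not among the promoters matched.

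Genes that act with the histones were taken from 3 lists, without those used in the phase scores, and their counts stand beside 23.8% of all genes higher and 20.8% lower in S. Of genes that process histone mRNA, 11 of 17 tested rose in S against G1 and 0 fell, with Eri1 (the 3′ exonuclease of histone mRNA) at 1.67, Lsm11 (of the U7 particle) at 1.25, Npat (the activator of histone genes) at 1.22 and Ncbp2 (of the cap-binding complex) at −0.064. Of 12 genes tested from the list of histone chaperones and related factors, all 12 rose, led by Asf1b (4.11), Chaf1a (3.70, a subunit of the CAF-1 complex) and Hat1 (1.55), with Nap1l4 the smallest at 0.31. Replication-independent histones, which are also made outside S phase, rose in 5 of 10 and fell in 1, H3f3b (−0.15), with H2afx at 1.64, H2afz at 0.92, H2afy at 0.42 and H1fx at 0.00042. The medians were 0.42, 0.93 and 0.10, beside 2.88 for the members.

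The genotypes were then compared within S-scored progenitors, so that a different share of S cells would not enter. Of 57 members tested, 21 were lower in the libraries labelled null and 0 higher (edgeR's quasi-likelihood test, Benjamini-Hochberg over 12169 genes), against 0.501% and 0.0575% of all genes. DESeq2 gave an adjusted p to 25 members and called 23 of them lower and 0 higher, among them each of the 13 members of the 21 that had one. The share of all genes that DESeq2 called is not given, so its count is not set against the shares above. At an unadjusted p under 0.05, 44 were lower, against 8.58% of all genes, and 0 were higher, against 5.41%. Fitted changes were negative for 56 of 57, with a median of −0.88 beside 0.0054 over all genes. Both null libraries lay below both WT libraries in CPM for 43 of 57 members, against 10.6% of genes, and above both for 0 members, against 43.7% of genes. With library totals in place of TMM factors the median of all genes shifted to 0.18 and that of the members to −0.69, with 21 members lower, 20 of them among the 21 above.

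All classes took part. Called lower were 2 of 5 H1 (median −0.65), 3 of 14 H2A (−0.71), 9 of 16 H2B (−0.99), 4 of 10 H3 (−0.91) and 3 of 12 H4 (−0.77). Hist1h2bl had 34.7 and 58.6 CPM in the null libraries against 104 and 119 CPM in WT, at −1.45 on the log2 scale (SE 0.19, adjusted p = 0.0296). Hist1h2bn had 31.7 and 51.9 against 90.6 and 97.2 CPM, at −1.36 (SE 0.18, adjusted p = 0.0296). Hist1h4c had 5.41 ± 1.15 (SD, n = 2) against 13.4 ± 1.4 CPM, at −1.50 (SE 0.22, adjusted p = 0.0377). In each of these genes, null replicate 1 was the lowest and null replicate 2 stood between it and WT. Of the abundant members, Hist1h1e had 1082 and 1366 against 1952 and 2036 CPM (−0.89), Hist1h1d 210 and 319 against 506 and 505 (−1.13), Hist1h3c 216 and 308 against 429 and 446 (−0.93), and Hist1h4d 302 and 552 against 792 and 896 (−1.18). The other 14 were Hist2h2ab, Hist1h2bg, Hist1h4k, Hist1h2bf, Hist1h3i, Hist1h2bj, Hist2h2bb, Hist1h2be, Hist1h3e, Hist1h2ab, Hist1h2an, Hist1h2bb, Hist1h3a and Hist1h2bp, from −1.39 to −0.94. Hist1h2be overlaps Hist1h1e on the same strand by 496 bases, and H2A, H2B, H3 and H4 genes have near-identical coding sequences, so the division of reads among copies is uncertain. Hist1h1b (−0.50, adjusted p = 0.178) and Hist1h2ap (−0.73, adjusted p = 0.0733), the most counted H1 and H2A genes in S, did not pass, nor did Hist3h2ba (−0.47) and Hist3h2a (−0.26).

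**Figure D5:**
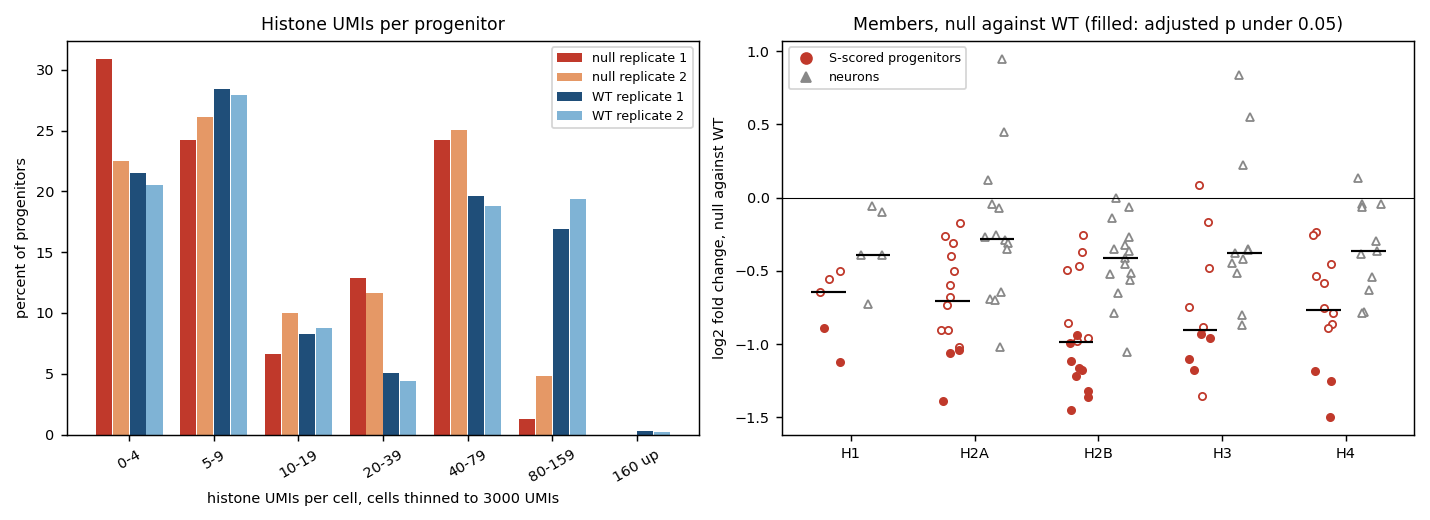
Left, percentage of progenitors by histone UMIs per cell after thinning to 3000 UMIs, 1 bar per library. Right, fitted log2 fold change of null against WT for each member in S-scored progenitors (circles, filled where called) and neurons (triangles), with class medians as lines. In S-scored cells 56 of 57 members lie below 0, and the 21 called lie between −1.50 and −0.89.

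The count of members called depended on the cells taken. It was 0 when cells within 0.05 of a phase boundary were left out and 2 among male cells only. The size of the change moved little in these settings, with member medians of −0.87 and −0.87, 56 of 57 and 55 of 56 members negative, and 44 and 41 lower at an unadjusted p under 0.05. The size also depended on single libraries. A fit without 1 library leaves 1 library of that genotype, so its count of calls is not given. The member median was −0.60 without null replicate 1 and −1.10 without null replicate 2. In all progenitors 1 of 60 members was called lower, Hist1h4c at −1.35 (adjusted p = 0.0294, 0.0147% of all genes lower), with 50 lower at an unadjusted p under 0.05 (10.3% of all genes) and 0 higher (7.62%), and a median of −0.81. There both null libraries lay below both WT libraries for 48 of 60 members (11.3% of genes) and above for 2 (48.3%). DESeq2 called 28 of the 32 members to which it gave an adjusted p, a count for which no share of all genes is given. In neurons 0 of 56 were called by edgeR (0.0295% of all genes higher, 0.0442% lower). DESeq2 called 1 of the 10 with an adjusted p, and its share over all genes is not given. At an unadjusted p under 0.05 in edgeR, 16 were lower (9.99% of all genes) and 1 higher (6.95%). The median was −0.36, and both null libraries lay below both WT libraries for 17 of 56 members (13.5% of genes) and above for 3 (41.9%). Whether S against G1 differed by genotype was tested as an interaction, which called 0 of 55 members (0.0341% and 0.00852% of all genes) with edgeR and 0 with DESeq2, with 2 higher (2.31% of all genes) and 16 lower (2.79%) at an unadjusted p under 0.05. The lower level was thus not shown to be particular to S phase.

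Along the cycle both null libraries lay below both WT libraries in 10 of 12 sectors, all but sectors 7 and 9. The null mean over the WT mean ran from 0.535 in sector 5 to 0.920 in sector 9, with 0.578 in sector 6 and 0.585 in sector 3. In sectors 6 to 10 each library lay below its background, as did all but WT replicate 1 in sector 5. The background was itself lower in null, so differences there cannot be told apart from free RNA. Sectors 3 and 4 lay above the background in each library, so the difference was not limited to sectors 1 and 2. In sectors 1 and 2, with 320, 193, 226 and 169 cells, summed histone mRNA was 15803, 21476, 28091 and 28295 CPM, so that null replicate 1 was at 0.561 and null replicate 2 at 0.762 of the WT mean. By class the mean of null over WT was 0.688 for H1, 0.715 for H2A, 0.590 for H2B, 0.595 for H3 and 0.545 for H4. In sectors 8 to 10, where histone mRNA is lowest, the ratio over all cells of those sectors was 0.820. It was 0.722 in sector 4, 0.580 in sector 11 and 0.646 in sector 12. Per cell thinned to 3000 UMIs, the median of sectors 1 and 2 was 52, 67, 88 and 92 histone UMIs. Progenitors with 80 or more histone UMIs made up 1.26%, 4.78%, 17.2% and 19.5% of all progenitors, and those with 20 to 39 made up 12.9%, 11.6%, 5.02% and 4.44%. The cells rich in histone mRNA thus held fewer histone UMIs in null libraries, and the gap between the null libraries was wider than that between the WT libraries.

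The share of progenitors scored as S (thinned cells) was 38.0% and 39.1% in null and 39.7% and 40.9% in WT, a difference of −1.75 percentage points, with an exact two-sided permutation p of 0.333, the smallest that 2 against 2 libraries allow. Other measures moved with genotype. The background barcodes held 3651 and 4030 histone CPM in null and 5311 and 4895 in WT libraries, the share of male cells was lower in null, and median UMIs of S-scored cells were 8955 and 11759 in null and 8437 and 7937 in WT. With every cell thinned to 3000 UMIs, 18 of the 21 members called in S-scored cells were still called. Among male cells alone the member median was −0.87, beside −0.88 over all S-scored cells. Marker genes fixed for the cell classes were set beside it, as CPM in the same S-scored cells. Both null libraries lay above both WT libraries for 3 of 7 MGE identity genes, 1 of 10 neuron genes and 6 of 11 progenitor genes, beside 43.7% of all genes. They lay below both WT libraries for 0, 1 and 0 genes of these lists, beside 10.6% of all genes. That 1 was Stmn3, with 233 and 196 CPM in null and 255 and 268 in WT. Gad1, the GABA-synthesizing enzyme, had 25.6 and 36.05 CPM in null and 18.7 and 20.9 in WT, Dlx1 668 and 672 against 586 and 547, and Dlx2 357 and 436 against 344 and 354, whereas Lhx6 overlapped. Of the progenitor genes, Nes had 394 and 326 CPM in null and 237 and 213 in WT. Other genes of these lists overlapped with a lower null mean. They were Lhx8 at 0.878, Hes5 at 0.923 and Fabp7 at 0.888 of the WT mean. Of the neuron genes they were Gap43 at 0.817, Stmn2 at 0.834, Ina at 0.916 and Nsg1 at 0.973. The neuron genes summed to 1641 and 1593 CPM in null and 1521 and 1624 in WT, so that these overlapped, and the progenitor genes to 4936 and 4902 against 4338 and 4099. The part of the background and of these markers in the result was not tested. Of the lists of histone mRNA processing, chaperones and replication-independent histones, 0 of 16, 0 of 12 and 0 of 10 genes were called between genotypes in S-scored cells, where 0.501% of all genes were called lower and 0.0575% higher. Their median log2 fold changes were −0.024, −0.16 and −0.32. Both null libraries lay below both WT libraries for 2 of 16, 0 of 12 and 5 of 10 genes of these lists, against 10.6% of genes, and above for 8, 5 and 0, against 43.7%. The 5 replication-independent histones were H2afz (3743 and 3064 against 4290 and 4201 CPM), H2afj (96.4 and 101 against 135 and 134), H3f3a, H3f3b and H2afy2, of which H2afj came nearest to a call, at −0.63 (adjusted p = 0.0594, edgeR).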

How the data were processed

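The authors aligned reads with Cell Ranger (5.0.1 per the submitters' processing notes, build GRCm38, an older version per the file headers) and deposited raw UMI counts per gene and barcode, not filtered for cells. Members and gene lists were chosen with earlier results of these data known. Cells had 3000 or more UMIs, 200 or more genes and at most 10% mitochondrial UMIs. Scrublet (scanpy 1.11.5) called at most 0.0665% of cells, so the highest scores were removed instead (0.8% per 1000 cells). The limits on genes and mitochondrial UMIs were the study's, and the UMI limit and doublet removal were added here. Cells were clustered once, all together, in Seurat 5.3.0, with 2000 variable genes that held no members and the difference of S and G2M scores regressed out, and were not clustered again within progenitors and neurons as in the study. Clusters were named from markers, and 1 cluster with similar neuron and progenitor scores (19 to 75 cells per library) was left unnamed by a rule set after seeing the data. Counts were summed per library and class or phase and tested with edgeR 4.0.16 (TMM, filterByExpr), and with DESeq2 1.42.0 as an alternative. The SE of an edgeR value is the size of its log2 fold change divided by the square root of the test's F statistic. CPM used all UMIs of the summed cells. Members named were the 3 with most UMIs in S per class, the 5 highest and 5 lowest in S against G1, those called between genotypes, those nearest the UMI limit, and for each list the 3 largest changes and the smallest. Hist1h1a, Hist1h1c, Hist1h2ac, Hist1h2ag, Hist1h2bk, Hist1h2br, Hist1h3d, Hist1h3h, Hist1h4f, Hist1h4n, Hist2h2be, Hist2h3b, Hist2h3c2 and Hist4h4 were added after their values were seen. On simulated counts with a log2 change of 1, the tests recovered 64% (S against G1), 86% (genotype, progenitors), 84% (genotype, neurons) and 43% (interaction) of changed genes. Replicate numbers follow sample order. Of the deposited identifiers 99.6% were found in GENCODE M21. Per-sample value columns left unused numbered 0.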

Additional observations from a re-analysis of the deposited data

How the results depend on the processing

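No paired analysis was possible because the labels give no replicate numbers that link null and WT libraries. Where phases of 1 library were compared, the library was a block. Without the library block, 8 members (43 as reported) were called in S against G2M and 10 (17 as reported) in G1 progenitors against neurons. In the latter, DESeq2 gave 9 and thinned cells 11, and the counts without 1 library ran from 11 to 16. Between genotypes in all progenitors (1 as reported) the count was 28 with DESeq2, 15 with library totals, 46 with no filter, 26 with doublets kept, 24 with thinned cells, 0 with male cells and 7 to 47 without 1 library. In neurons (0 as reported) it was 1 with DESeq2, 3 with no filter and 2 to 12 without 1 library. In S-scored progenitors (21 as reported) it was 38 with no filter, 0 with cells near a phase cut left out, 2 with male cells, 13 with the unnamed cluster counted as progenitors (added after seeing the data) and 15 to 45 without 1 library. The member median was −0.87, −0.87 and −0.89 in the settings with 0, 2 and 13 calls, beside −0.88 as reported. The share of all genes called in each of these settings, between phases, classes or genotypes, is not given. These counts alone therefore do not show how far a change was particular to the members. Fits between genotypes or of the interaction without 1 library leave 1 library of a genotype. The counts of these fits, which also moved, are therefore not given. The cause of these changes was not tested. Hist1h4i in S against G1 (−0.15) turned to 0.067 with DESeq2, 0.71 with cells of at least 5000 UMIs and 0.024 with the unnamed cluster, and ran from −0.55 to 0.67 without 1 library (0.67 without WT replicate 1). Hist2h3c1 (0.17) turned to −0.032 with at least 5000 UMIs and −0.0326 with the unnamed cluster, and ran from −0.077 (without WT replicate 2) to 0.56 without 1 library. Mean summed CPM moved by less than the spread between libraries. With unthinned scores the S share was 38.3%, 40.9%, 40.2% and 41.4%, so that the genotypes overlapped, with a difference of −1.19 points in place of −1.75 and an exact permutation p of 0.667. Of other values of named members, 836 kept direction and call and 113 lost the call, without those to which DESeq2 gave no adjusted p. Few UMIs in G1 limit members such as Hist1h2ah, Hist1h2ad, Hist1h2bh, Hist1h2ag, Hist1h2bk, Hist1h3h, Hist1h4c, Hist1h4f, Hist1h4n, Hist2h3c1, Hist2h3c2 and Hist4h4.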
